A study of Bos taurus with 2 samples.

Results

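CpG methylation was described at 41 genes of developmental transcription factors in bovine bone. The genes were listed by name for their families, namely PAX, T-box (TBX), sine oculis (SIX2, SIX3 and SIX6), LIM-homeobox (LHX and ISL1), NKX, GATA, forkhead (FOX), SOX, OTX and goosecoid (GSC). Their methylation was not a rule for listing them, but earlier results of these data were known when they were chosen. Of these, 40 were found on 21 chromosomes among 21162 protein-coding genes, and PAX7 was not analysed here. The data were whole-genome bisulfite sequencing (WGBS) of 2 samples, which the study used as 1 of its cattle tissues. Both were labelled as bone of female Holstein cattle, a dairy breed, and together they formed 1 untreated group with no control tissue. Age and bone were not given in the labels, nor was it said whether the samples came from separate animals, so that an SD below covers the spread between these samples, which may be technical.

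In WGBS, bisulfite converts unmethylated cytosines, so that each read over a CpG site gives a methylated or an unmethylated call. Transcription factors of these families bind DNA through paired, homeobox, T-box, zinc-finger, forkhead or HMG domains and set the identity of cells and organs in the embryo. Their promoters usually lie in CpG islands, and in mammals many of them are known to be held silent outside their own tissue by Polycomb proteins, within broad stretches of DNA with hardly any methylation. Low methylation at such a gene is therefore no sign by itself that the gene is on.

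The deposited counts held 462047525 calls on chromosomes 1 to 29 and X in the first sample, called sample 1 here, and 406703424 in sample 2. Of these calls, 72.3% and 58.7% were methylated. The gene table gave both ends of a gene but not its strand. A window reaching from 1000 bp outside to 500 bp inside was thus laid at each end, and the window with more CpG sites was taken in place of the promoter. CpG density around annotated gene ends peaked at the end itself on 30 of 30 chromosomes. The same held in the neighbourhood of 40 of 40 listed genes, averaged over all genes that start within 5 Mb. Some of these neighbourhoods overlap, and the average does not check the ends of each listed gene. Among genes that define bone-forming cells, the window lay under 20% in both samples at 3 of 11, where 51.1% of all windows did, which included SP7 and COL1A1, while BGLAP, the osteocalcin gene, had 87.3% and 56.5%. RUNX2 had 87.0% and 60% over 15 CpG sites, and 27.3% and 28.5% at its other end. Low windows were also found at 3 of 6 osteoclast, 2 of 11 white blood cell, 1 of 5 red cell, 3 of 5 cartilage, 0 of 5 fat and 2 of 5 muscle genes, beside the same 51.1%. That share was not matched in CpG number. The median was 69 sites over all genes, 29 for bone-forming cells, 76.5 for osteoclasts, 36 for white blood cells, 35 for red cells, 116 for cartilage, 16 for fat and 65 for muscle. The part of the cell mixture in the levels below was not tested, and a bulk level cannot tell a share of methylated cells from partial methylation in every cell.

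The developmental transcription factor genes were nearly all unmethylated at their CpG-richer end. A level is the number of methylated calls over all calls of a window in percent, and a window under 20% in both samples is called low. Of the 40 windows, 36 were low, beside 51.1% of all 20921 windows tested and 71.6% of the 14706 that had 37 or more CpG sites. Their median level was 4.94% in sample 1 and 4.38% in sample 2, with a mean of 4.66% ± 0.392 (SD, n = 2), beside 12.8% and 17.1% over all genes. The windows held 37 to 215 CpG sites with a median of 110.5, against 69 over all genes. The 71.6% sets only a lower limit on CpG number and is not matched to these windows. No share of low windows was taken at equal CpG number (within 10%). The medians of such windows were themselves low, at 2.99% and 5.90% in the middle. Each of the 40 windows rested on 167 to 3604 calls in sample 1 and 258 to 1043 in sample 2. In 17 genes the level was under 5% in both samples, and in 29 it was under 10% in both. The share of all windows under these 2 limits was not taken. At single sites, 2712 of 4340 CpG sites read in sample 1 (62.5%) and 3408 of 4272 read in sample 2 (79.8%) had no methylated call. Calls per site were fewer in sample 2, with medians of 14.2 and 6.08, which by itself raises the number of sites without a methylated call.

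**Figure D1:**
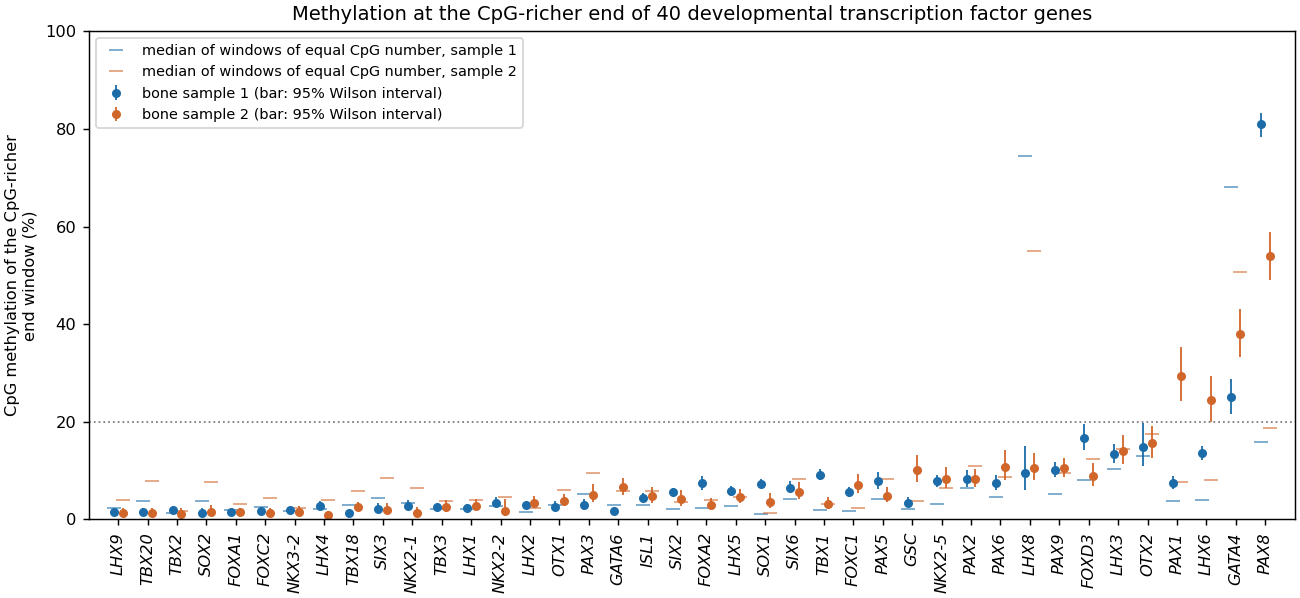
CpG methylation in percent of the CpG-richer end window of each of the 40 genes, in sample 1 (blue) and sample 2 (orange), with 95% Wilson intervals, and the median of windows of equal CpG number in each sample (dashes). Most genes lie under 10% in both samples, and PAX8, GATA4, LHX6 and PAX1 reach the dotted line at 20% in at least 1 sample.

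Which end of a gene is the start was known for none of these genes, but for 12 of 39 genes with enough calls it did not matter, since both end windows were low (2.37% of all genes). These were FOXA1, FOXC1, FOXD3, LHX1, LHX5, NKX2-1, NKX2-2, NKX2-5, OTX1, SIX6, SOX1 and SOX2. Their annotated lengths ran from 1479 bp (SOX2) to 11339 bp (NKX2-2), where the median of all genes was 17554.5 bp. The shares of all genes in this paragraph were not matched in length. At the end with fewer CpG sites 12 of 39 genes were low (3.15% of all), and 35 of 39 were low at either end when both ends are counted (52.4% of all). For 23 of the 39 the richer end alone was low, and PAX9 had a low richer end and too few calls at the other. Over all 39, the CpG-poorer end had median levels of 39.6% and 38.5%, still under the 81.2% and 62.9% of all genes.

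By family, low windows were found in 5 of 5 TBX, 5 of 5 FOX and 4 of 4 NKX genes. They were also found in 2 of 2 SOX and 3 of 3 OTX and GSC genes, and at all of SIX2, SIX3 and SIX6. The background is the same 71.6% of CpG-rich windows, which was not matched to the CpG number of each family. The TBX genes, which pattern heart, pharynx and limb, had median levels of 1.84% and 2.49%. The NKX genes, which act in forebrain, thyroid, heart and the axial skeleton, had medians of 3.11% and 1.69%. In the LHX and ISL family, 8 of 9 windows were low, with medians of 4.34% and 4.58%. The PAX family stood highest among the larger families, with 5 of 7 low windows and medians of 7.84% and 10.5%. Of the GATA pair, 1 of 2 windows was low.

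The genes were also grouped in lists named for organs in which the factors act, although several act in other organs too. The skeletal and limb list includes LHX9, PAX3 and GSC, and the neural and eye list includes PAX5. Low windows made up 51.1% of all windows and 71.6% of those with 37 or more CpG sites. Neither share was matched to the CpG number of these lists. Low windows were found at 12 of 13 skeletal and limb genes, 17 of 18 neural and eye genes, 4 of 5 heart and pharynx genes and 3 of 4 endoderm and thyroid genes. Median levels were 2.92% and 3.34% for the skeletal and limb genes and 6.90% and 4.79% for the neural and eye genes. The endoderm and thyroid list includes PAX8, the most methylated of the 40 windows. No test between these lists was made.

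At 4 genes the window reached 20% in at least 1 sample. PAX8, a paired-box factor of thyroid and kidney (gene ID 534661), had 80.9% of 939 calls methylated in sample 1, with a 95% Wilson interval from 78.3 to 83.3, and 54.0% of 396 calls in sample 2, with an interval from 49.1 to 58.9. These intervals, like all others here, cover counting error only. The window spans 53 CpG sites from position 46980788 to 46982079 of chromosome 11, and its opposite end was methylated too, at 81.1% and 64%. A low stretch of 2.5 kb with levels of 4.70% and 2.83% began 0.746 kb inside the gene from this end. PAX8 thus did have unmethylated DNA, but not at its annotated ends.

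GATA4, a zinc-finger factor of heart and foregut (gene ID 327716), had 25% of its 583 calls methylated in sample 1 and 38.0% of its 376 in sample 2, over 42 CpG sites of chromosome 8 from position 7641599 to 7642902. No site of this window lacked a methylated call in sample 1. Its longest low stretch, of 7.5 kb with 391 CpG sites and levels of 6.55% and 5.48%, lay 50.5 to 58 kb inside the gene. LHX6, a LIM-homeobox factor of forebrain interneurons, had 13.6% of 2109 and 24.4% of 328 calls methylated. PAX1, a paired-box factor of the sclerotome from which vertebrae form, had 7.40% of 1472 and 29.5% of 258 calls methylated. By summed calls LHX6 and PAX1 were thus under 20% in sample 1 and over it in sample 2. Only 8 of the 97 CpG sites at PAX1 and 16 of the 93 at LHX6 were read 5 times or more in both samples. With equal weight for each of these few sites, PAX1 had 44.1% and 48.8% and LHX6 40% and 35.4%. Of all sites read in sample 1, 56 of 96 at PAX1 and 67 of 93 at LHX6 had no methylated call. In sample 2, with fewer calls per site, these were 62 of 80 at PAX1 and 66 of 84 at LHX6.

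Set beside windows of equal CpG number (within 10%), the end windows of these genes were not lower in both samples. The median difference from the equal-CpG medians was 1.32 percentage points in sample 1 and -1.21 in sample 2, with 12 genes below in both samples and 11 above in both. With windows reaching 2000 bp outside, the median differences were -2.16 and -7.84 points, below in both samples, and with 500 bp to either side they were 2.69 and 1.35 points, above in both. Each gene had 174 to 2880 windows to compare with, whose medians were themselves low, at 2.99% and 5.90% in the middle. The gene farthest below was LHX8, a factor of forebrain neurons and teeth, whose 37 CpG sites had 9.58% of 167 and 10.5% of 487 calls methylated where windows as poor in CpG had medians of 74.5% and 54.9%. GATA4 followed, its equal-CpG medians being 68.2% and 50.8%. TBX20, a T-box factor of the heart, had 1.57% and 1.23% against 3.82% and 7.80%. Farthest above were PAX8, with equal-CpG medians of 15.8% and 18.8%, LHX6, with 4.04% and 8.05%, and PAX1, with 3.87% and 7.74%.

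Unmethylated DNA reached farther around these genes than around genes with an equal number of CpG sites in the end window. The match in CpG number held for that window only, since the median number of CpG sites per 500 bp was 20.5 against 5 at 2 kb outside the gene, 24 against 5.25 at 2 kb on its side and 10 against 6 at 5 kb on its side. The part of this CpG richness in the width was not tested. In 500 bp bins around the CpG-richer end, the median level at the end itself was 3.57% and 3.33%, slightly above the 0.656% and 0.592% of genes of equal CpG number. At 2 kb outside the gene the order had turned, with 12.5% and 12.1% in these genes against 82.1% and 63.9%. At 5 kb on the side of the gene they had 20.2% and 16.2% against 84.5% and 66.0%. At 10 kb the median was 71.9% and 52.6% away from the gene and 32.9% and 23.7% on its side. Since 12 of the genes are shorter than 5 kb and 17 shorter than 10 kb, many of these bins lie beyond the other gene end. At 20 kb away from the gene, the levels of 79.0% and 55.6% lay close to the 82.7% and 64% of the genes of equal CpG number.

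**Figure D2:**
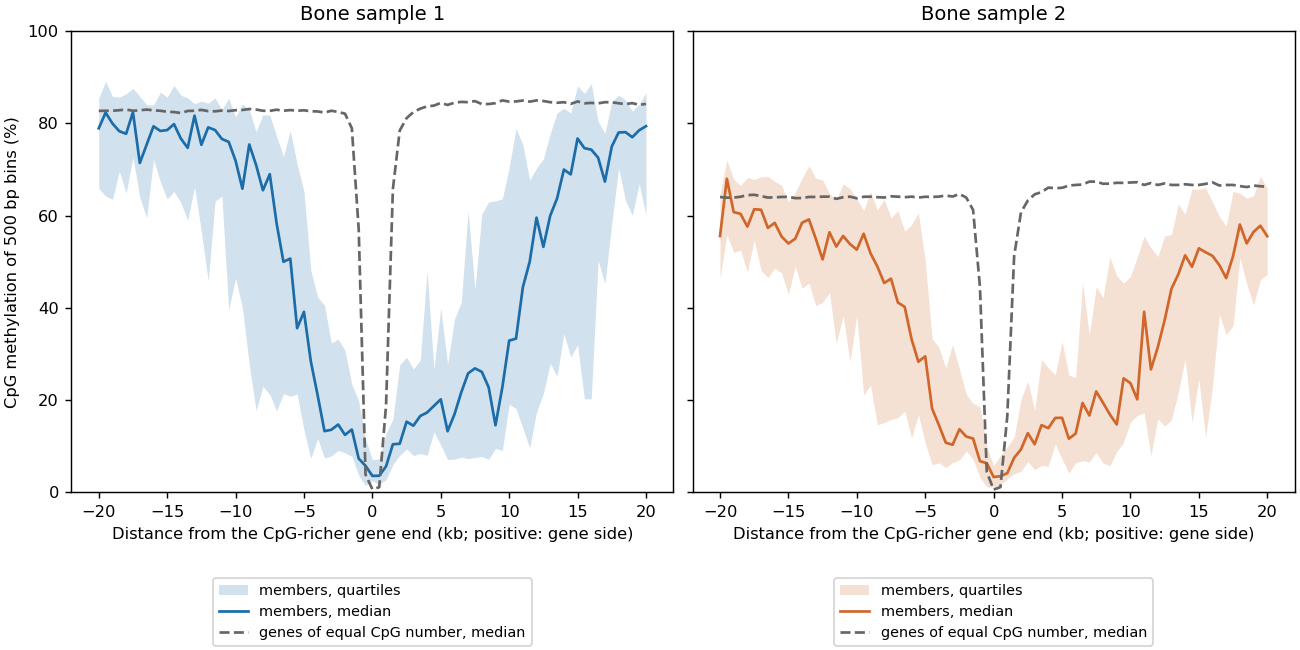
Median CpG methylation in percent of 500 bp bins against the distance in kb from the CpG-richer gene end (positive values run toward the other gene end and, in short genes, past it), with quartiles shaded, for the 40 genes and, dashed, for genes of equal CpG number, in sample 1 (left) and sample 2 (right). The dashed curve is above 78% in sample 1 and above 60% in sample 2 at 2 kb from the end on both sides, while the developmental genes stay under 14% on either side at that distance.

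The low stretch was measured from the CpG-richer end as the run of 500 bp windows under 20% in both samples. Its median width was 4 kb in these genes, against 1 kb over all genes and a median of 1.5 kb over the equal-CpG medians of each gene. It exceeded that of genes of equal CpG number in 36 of 40 genes, equalled it in LHX2 and fell short in OTX2, PAX8 and FOXC1. Stretches of at least 5 kb were found at 15 of 40 genes and at 1.00% of all 20273 genes measured, and stretches of at least 10 kb at 3 genes and at 0.0395% of all, which was 8 genes. For 29 of the 40, fewer than 10% of the genes of equal CpG number had a stretch as wide. The median width depended on the limit and the end. It was 2 kb under 10% (1 kb over all genes) and 6 kb under 30% (1.5 kb over all genes). At the end with fewer CpG sites it was 0 kb, both in these genes and over all genes.

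The 5 widest stretches at the CpG-richer end belonged to LIM-homeobox and PAX genes. LHX9, a factor of gonad, limb and brain (gene ID 515012), had 12 kb between CpG sites 76855923 and 76867860 of chromosome 16, and no other gene among 2019 of equal CpG number was as wide. LHX5, a forebrain factor, followed with 11 kb on chromosome 17 (60980668 to 60991584). PAX6, the master gene of the eye, had 10 kb on chromosome 15 (62578781 to 62588749). LHX1, a factor of the head organizer and kidney, had 9.5 kb on chromosome 19 (13297513 to 13306924), and LHX8 had 9 kb on chromosome 3 (69658756 to 69667716). LHX8 joined this wide stretch to the lowest number of CpG sites of all 40 windows. By family, the median width was 7 kb for LHX and ISL, 5 kb for PAX and NKX, 5.5 kb for the SOX pair, 3.5 kb for TBX and FOX, 3 kb for SIX2, SIX3 and SIX6, 2.5 kb for OTX and GSC and 2.25 kb for the GATA pair.

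**Figure D3:**
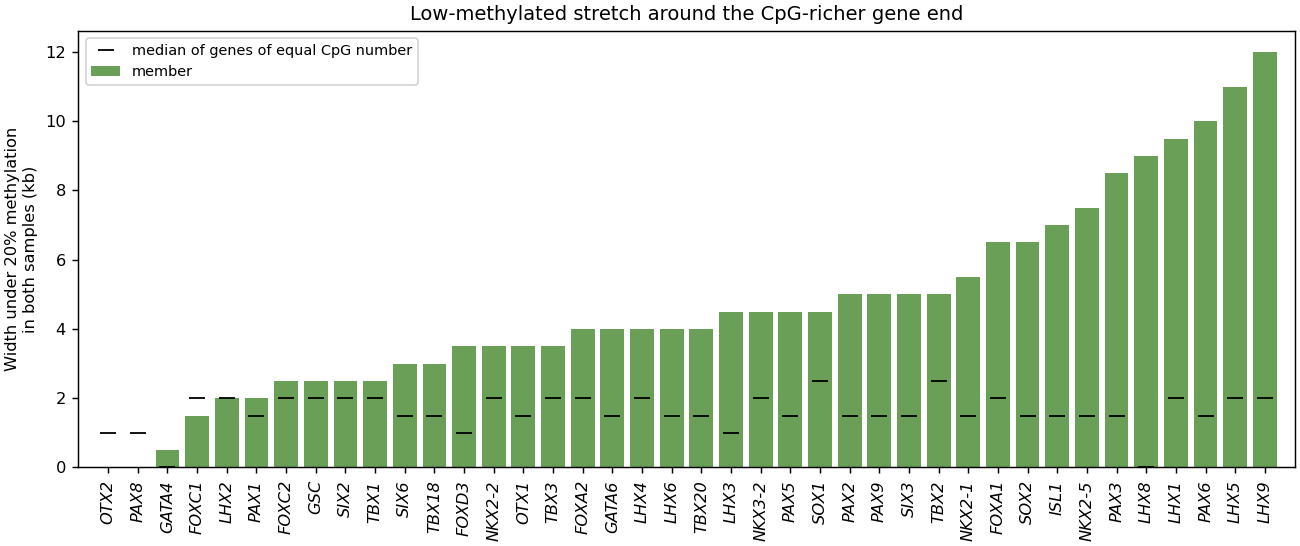
Width in kb of the low-methylated stretch (500 bp windows under 20% in both samples) around the CpG-richer end of each gene (bars), with the median of genes of equal CpG number (black dashes). Bars run from 0 kb at OTX2 and PAX8 to 12 kb at LHX9, and 36 of the 40 exceed their dash.

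The narrowest stretches were 0 kb at OTX2 and PAX8, 0.5 kb at GATA4, 1.5 kb at FOXC1 and 2 kb at LHX2, which PAX1 equalled. For some of these genes the low stretch was displaced from the end rather than absent. OTX2, a homeobox factor of forebrain and eye, had a low window of 14.8% and 15.6% but no low stretch at the end when both samples had to be low, and a stretch of 3.0 kb that began 0.508 kb inside the gene. In sample 2 alone OTX2 had a stretch of 11 kb at the end, against 0 kb in sample 1. FOXC1, a forkhead factor of eye and skeletal mesenchyme, had 3.5 kb at its other end, where the window had 1.15% and 0.789%. That window held 159 CpG sites against 160 in the one used, so that the choice of end was nearly a tie. A second measure took the longest low stretch that touched a gene or its 5 kb flanks. Its 500 bp windows were laid from another starting point and were not centred on the gene end, so that it can come out shorter than the stretch at the end. By this measure 20 of 40 genes reached 5 kb beside 1.2% of all genes (3 genes reached 10 kb, beside 0.0567%, namely LHX9 with 12 kb, LHX1 with 11 kb and NKX2-1 with 10.5 kb, while LHX5 had 6 kb and PAX6 9 kb), and the median was 4.75 kb beside 1.5 kb. Taken in each sample alone, the stretch at the end was wider in sample 2 for 25 genes and wider in sample 1 for 4, with medians of 4.5 kb in sample 1 and 5.75 kb in sample 2. Over all genes the median was 1 kb in each sample, and the share that was wider in sample 2 was not taken. Sample 2 also had the lower genome-wide level and fewer calls per site, whose part in this was not tested.

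Over the whole gene and 5 kb to either side, these genes also lay far under the rest of the genome. Their median level was 18.6% in sample 1 and 24.0% in sample 2, with a mean of 21.3% ± 3.86 (SD, n = 2), against 69.0% and 56.9% over all genes. In 16 of 40 genes the whole region was under 20% in both samples, as in 0.889% of all 21138 regions. In both samples, all 40 were below the median of genes whose region, flanks included, was of equal length (within 20%). These medians were 56.6% to 75.7% in sample 1 and 49.3% to 62.3% in sample 2. The match was in length only. The number of CpG sites was not matched, and its part in these low levels was not tested. The flank beyond the CpG-richer end had medians of 14.4% and 12.8% and the gene itself 17.9% and 20%. At the flank beyond the other end the medians were 59.6% and 48.1%, closer to the 78.8% and 60.4% of all genes.

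The least methylated regions were those of 5 genes with annotated lengths of 1479 bp (SOX2) to 11339 bp (NKX2-2), where the median of all genes was 17554.5 bp. SOX2, a factor of neural stem cells, had 6.09% and 10.7% over its region. NKX2-2, a factor of the ventral neural tube and pancreas, had 8.01% and 7.88%. NKX2-1, the thyroid, lung and forebrain factor, had 9.71% and 6.97%. FOXA1, a forkhead factor of endoderm, had 9.26% and 9.78%, and SIX6, a factor of the eye field, had 9.09% and 10.1%. These 5 genes act in brain, eye or endoderm, and in bone at most 10.7% of the calls over gene and flanks were methylated in either sample.

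The most methylated regions belonged to 5 genes of 32372 bp (GATA6) to 182106 bp (PAX5). PAX8 had 61.2% and 46.8%, and PAX5, the B cell and midbrain factor, had 58.6% and 46.8%. LHX4, a factor of the pituitary, had 50.3% and 40.3%. PAX3, a factor of neural crest and muscle precursors, had 41% and 39.1%, and GATA6, a factor of heart and endoderm, had 39.3% and 39.1%. Apart from PAX8, these genes had low end windows, such as 2.85% and 0.817% at LHX4, so that their methylated calls lay elsewhere in the gene and its flanks.

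The samples differed at the end windows of 13 of the 40 genes, by two-sided Fisher's exact tests with Benjamini-Hochberg adjustment over all 20921 windows (adjusted p under 0.05), against 63.8% of all windows. The level was higher in sample 1 for 7 genes (37.0% of all) and in sample 2 for 6 (26.9% of all). When the test asked for a departure from the genome-wide odds ratio of 1.84 between the samples, 23 of 40 genes were called, beside 60.8% of all windows. Relative to that ratio, 2 of them had an excess in sample 1 (14.7% of all windows) and 21 in sample 2 (46% of all windows), though SIX6, counted among the 21, had 6.47% in sample 1 and 5.65% in sample 2. The split over all windows turned from 7731 in favour of sample 1 and 5621 of sample 2 to 3079 and 9632. Such a test compares these libraries and not conditions, and calls on the same read are not independent, so that its p-values are too small. Among low windows alone, 9 of 36 differed against 47.5% of all. Of the 36, 6 were called higher in sample 1, beside 6.50% of all low windows, and 3 were called higher in sample 2, beside 41%.

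The difference at PAX8 was 26.9 percentage points (adjusted p = 1.97e-21, Fisher's exact test) and went the way of the whole genome, higher in sample 1. For PAX1, sample 1 minus sample 2 gave -22.1 points (adjusted p = 2.42e-19, exact test). For GATA4 the same difference was -13.0 points (adjusted p = 7.01e-05, exact test) and for LHX6 -10.8 points (adjusted p = 5.34e-06, exact test). In the window of 500 bp to either side, PAX1 had 3.99% and 10%, a difference of -6.01 points (adjusted p = 0.0199, exact test), and was low in both samples. In that window GATA4 differed by -6.56 points and was not called (adjusted p = 0.0948, exact test). When only the 8 and 16 CpG sites read 5 times or more in each of the samples were kept, PAX1 had 47.1% and 50% and LHX6 had 40.8% and 39.3%, and neither was called (adjusted p = 0.791 and 0.829, exact tests). These windows had 2.66 and 3.53 calls per site in sample 2, against 15.2 and 22.7 in sample 1. By the same limit, 8 of the 40 genes differed, beside 54.7% of all windows.

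Smaller differences were called within windows that were low in both samples. GATA6 had 1.73% and 6.61% (adjusted p = 2.15e-08, exact test), and GSC, the factor of the embryonic organizer, had 3.44% and 10.1% (adjusted p = 1.83e-06, exact test), both higher in sample 2. GSC did not keep that direction in a window of 500 bp to either side, where it had 3.61% and 1.89%. Higher in sample 1 were TBX1, the pharyngeal factor, with 9.11% and 3.09% (adjusted p = 5.30e-08, exact test), FOXD3, a neural crest factor, with 16.7% and 8.92% (adjusted p = 9.36e-05, exact test), and FOXA2, of endoderm and floor plate, with 7.40% and 2.95% (adjusted p = 6.22e-05, exact test). SOX1, of neural progenitors, had 7.34% and 3.62% (adjusted p = 0.00113, exact test). In the window of 500 bp to either side FOXD3 was not called (3.34 points, adjusted p = 0.247) and neither was FOXA2 (3.21 points, adjusted p = 0.0516), by the same exact test. TBX1 was called there with 3.55% and 1.17%, a difference of 2.38 points (adjusted p = 0.00593, exact test). FOXD3 was also not called with 2000 bp outside (1.70 points, adjusted p = 0.153, exact test), nor SOX1 over the 13 of its 215 sites read 5 times or more in both samples (3.63 points, adjusted p = 0.414, exact test). The remaining calls were LHX4 and PAX5, higher in sample 1, and TBX18, higher in sample 2. At the 27 genes not called, the levels differed by at most 3.35 percentage points.

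Over gene and flanks, the direction between the samples depended on which CpG sites were kept and how they were weighted. With all calls summed, 21 of 40 regions were higher in sample 2, as were 18.9% of all regions. Still with summed calls, but over CpG sites read 5 times or more in both samples, 10 of 40 were higher in sample 2, as were 12% of all regions. With each CpG site given equal weight and 5 or more calls required per sample, 0 of 40 were higher in sample 2, as were 0.123% of all regions. TBX18, a factor of limb and heart mesenchyme, had 19.9% and 33.5% with all calls summed, 18.9% and 26.5% over the shared sites and 23.7% and 19.9% with equal weights. PAX9, a factor of teeth and vertebrae, had 14.9% and 26.3%, then 15.8% and 23.5%, and then 19.1% and 15.7%. Under equal weights the medians of the 40 regions were 24.2% and 19.0%, and the median difference was 4.94 percentage points, from 0.492 to 16.2, beside 13.4 over all genes. The sign of a difference between the samples over these regions is thus not given by summed calls alone.

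**Figure D4:**
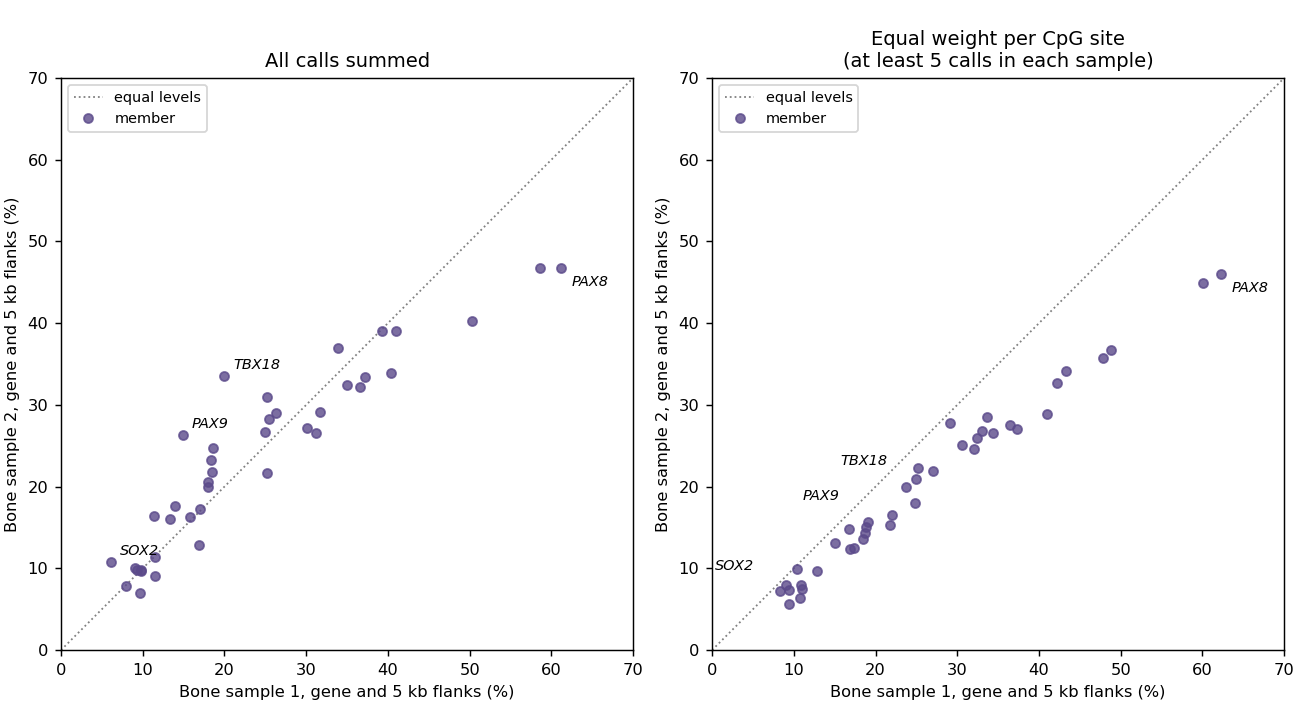
CpG methylation in percent over gene and 5 kb flanks in sample 1 (horizontal axis) and sample 2 (vertical axis), 1 point for each of the 40 genes, with all calls summed (left) and with equal weight for each CpG site read 5 times or more in both samples (right). With summed calls, 21 points lie above the line of equal levels, and with equal weights 0 do.

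Other genes of the same families, 66 in number, were measured in the same way. Low windows were found at 47 of 66, beside 51.1% of all windows and 71.6% of those with 37 or more CpG sites, with medians of 7.06% and 9.17%. Some of the 66 windows had fewer than 37 CpG sites, so that the second share is not a like comparison. A stretch of at least 5 kb at the CpG-richer end was found at 5 of 66, beside 1.00% of all genes, with a median of 2 kb. Wide stretches also lay away from that end. The longest one touching the gene or its flanks was 11 kb at EOMES, with 0 kb at the end, and 8.5 kb at TBX5. The share of the 66 that reached 5 kb by this second measure was not taken. Over gene and flanks their medians were 32.3% and 33.9%. The most methylated windows among them were NKX1-2 (84.3% and 74.5%), GATA1, the red cell factor (84.2% and 65.7%), SOX13 (80.4% and 66.9%), TBX19, of the pituitary (86.2% and 58.9%), and SOX15 (80.5% and 49.1%). Next came PAX4, of pancreatic islets (71.0% and 49.8%), FOXL1 (71.6% and 48.1%), FOXI1, of the inner ear (61.6% and 51.7%), SOX10, of neural crest and glia (58.3% and 45.8%), and SOX30, of the testis (40.6% and 59.3%). Of these 10 genes, NKX1-2 was the only one at over 70% in both samples, and its other end had 34.7% and 16.5%. By the longest low stretch touching the gene or its flanks, FOXL1 had the widest of the 10 with 4 kb, followed by NKX1-2 with 2.5 kb. The windows of TBX19, PAX4, NKX1-2, GATA1 and FOXL1 had only 9 to 24 CpG sites. Those of SOX13, SOX10, SOX15, SOX30 and FOXI1 had 40 to 75.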

How the data were processed

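DNA of 2 bone samples, treated as 1 group, was sequenced after bisulfite conversion. After trimming, Bismark mapping and removal of duplicate reads, the authors deposited raw counts of methylated and of unmethylated calls for every cytosine in a CpG, strand by strand. The submitters' processing notes name FastQC 0.11.5, Trim Galore 0.4.5, Bowtie2, Bismark 0.19.0 and the ARS-UCD1.2 build, and the paper's methods name another build and other versions. Positions given are of CpG sites in the deposited counts.

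Strands were merged into 27138930 CpG sites, and calls were summed over windows with at least 20 calls in each sample, so that deeply read sites weigh more. Genes were placed with the RefSeq gene table of ARS-UCD2.0, which gives no strand. Promoters were planned, but the CpG-richer end window, chosen from CpG positions only, was used in their place, and the other end was an alternative. Placement was checked by the mean number of CpG sites per 500 bp around gene ends. It peaked at 14.0 to 26.4 by chromosome and at 15.0 to 34.4 over all genes within 5 Mb of a listed gene. Low stretches were runs of 500 bp windows with at least 10 calls in each sample, with at most 2 windows in a row bridged, up to 50 kb to either side. Differences between the samples were tested per window with a Fisher's exact test (two-sided) and Benjamini-Hochberg adjustment. Single windows carry 95% Wilson intervals.

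On simulated counts at 20921 windows, 200 of them changed, 65.5% of changes of 10 percentage points, 90% of 20 and 98% of 30 were recovered, and 8, 6 and 6 windows without change were called. The simulated calls were independent, and all other windows had equal levels in both samples. In the real samples 63.8% of windows were called different, so these rates need not hold for them. The genes, families, role lists and marker lists were chosen with earlier results of these data known. Values were given for genes at or over 20%, the 10 largest called differences, the 5 widest and 5 narrowest stretches, the 5 highest and 5 lowest regions, the 3 farthest from equal CpG number on either side and the 10 highest other family genes. PAX9 and TBX18 in the equal-weight comparison were named after their values were seen. Of the other family genes listed, SOX3 was not analysed here. Alternatives were other windows, thresholds, flanks, call minimums and weights. The software was scipy 1.17.1, numpy 2.4.6, pandas 2.3.3, matplotlib 3.10.9 and pyarrow 21.0.0 under Python 3.11.15.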

Additional observations from a re-analysis of the deposited data

How the results depend on the processing

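No paired analysis was possible because both samples belong to 1 group. Of the alternatives for the results over the genes as a whole, 55 stayed within the spread between the samples or, for counts, within 1.5 times, and 23 did not. Of those for the difference at single genes, 52 kept the direction and the call, 6 lost the call and 2 turned direction. Both tallies include settings that could not change a result. With call minimums of 10 or 50 the levels of these genes stayed fixed, since each window held at least 167 and 258 calls. Leaving out 1 sample could not move a level, a region level or a difference from equal CpG number beyond that spread. In windows of 500 bp to either side the mean of the median levels was 3.79%, the difference from equal CpG number 2.02 points and the number of all windows called 8548 (6561 higher in sample 1), and GSC turned to 1.73 points. With 2000 bp outside these were 6.97% and -5.00 points, and 21 of the genes were called (81% of all windows). At the end with fewer CpG sites, chosen after seeing the data as were both ends, the longest stretch and the limits to sites shared by the samples, the level was 39.1%, low windows numbered 12 and those of other family genes 14, the difference was -15.0 points, 21 genes were called (76.4% of all windows) and the median stretch was 0 kb. The mean of both ends was 24.6%, and 12 genes were low at both. Keeping only sites read 5 times or more in both samples left 8 genes called and turned LHX6 to 1.49 points. The genome-wide odds ratio gave 23, and a minimum of 10 points gave 4 of the genes and 7753 of all windows. Flanks of 10 kb gave 28.2%. The median stretch was 6 kb under 30% (1.5 kb over all genes), 2 kb under 10%, 5 kb in 1000 bp windows and 5.75 kb without sample 1. Leaving out either sample gave levels of 4.38% to 4.94%, 36 to 38 low windows, 48 to 49 in other family genes, differences of -1.21 to 1.32 points, regions of 18.6% to 24.0% and stretches of 4.5 to 5.75 kb. The cause of these changes was not tested. Sample 2, with a median of 6.08 calls per site in these windows, limits the precision.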
